A study of Ovis aries with 2 samples.

Results

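The gene with the most sequencing reads in sheep biceps brachii, a muscle of the upper foreleg, was examined together with its further listed copies. All rows of the deposited gene tables were taken whose identifier starts with ENSBTAP00000012797, a cattle Ensembl protein identifier that the authors used to name a sheep gene. The rule gave 3 of the 14290 genes listed in either library, which were ENSBTAP00000012797-D3, ENSBTAP00000012797-D4 and ENSBTAP00000012797-D6, and they are called the D3, D4 and D6 copies here. The row without a suffix and other suffixes of the same identifier were not among the listed genes. The D3 copy was chosen by its number of unique reads, the highest of all genes, so its reads and all values computed from them are given as a description with no test.

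The tissue came from 11-month-old ewes of a pair of breeds kept under the same conditions. Dorper (DP) sheep are a South African meat breed, and small-tailed Han (SH) sheep are an indigenous Chinese breed. Each breed was represented by 1 library, and the number of animals behind a library is not given in the sources used here. Breed, animal and library therefore cannot be told apart, and every difference between DP and SH below is a difference between these 2 libraries without a replicate check. The SH library was the deeper one, with 1.22 times the unique reads on genes of the DP library. The authors listed for each gene its unique reads, its length, how much of that length had reads (coverage), and its RPKM, in which the reads are corrected for both length and library depth. The 95% intervals given here are exact binomial intervals unless another kind is named, and they cover counting error only.

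Skeletal muscle devotes a large part of its mRNA to the proteins of the contractile apparatus. The motor of its thick filament is myosin heavy chain, which is made from a family of closely similar genes, and muscle fibres of different speed use different members of that family. Several of these genes lie in a row on one chromosome, and in the RefSeq annotation of the sheep assembly ARS-UI_Ramb_v3.0 the genes MYH1 and MYH2 are direct neighbours, with MYH8 and MYH13 close by. The deposited tables hold no gene names. That annotation lists genes by symbol and not by protein or prediction identifiers, so finding 0 of the 14290 identifiers in it was fixed in advance. A name for the 3 copies would therefore be an inference. Their lengths and the abundance of D3 in muscle recall a myosin heavy chain, but no sequence was at hand to test this, and they are referred to by identifier throughout. The sources used here pair no names with the identifiers, so the muscle origin of the samples was not checked against marker genes. No sequence of the copies is shown.

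The 3 copies were nearly equal in length. The D3 copy was 5808 bp long, the D4 copy 5823 bp and the D6 copy 5787 bp, so that the longest was 1.01 times the shortest. The lengths of all listed genes were multiples of 3, as coding lengths without untranslated regions are. Read as a coding sequence that ends in a stop codon, D3 would encode 1935 residues, D4 1940 and D6 1928. No other listed gene had the length of D3.

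The reads were spread very unequally over the copies. The D3 copy had 1159677 unique reads in DP and 2375745 in SH. The D4 copy had 43577 in DP and 87601 in SH, and the D6 copy had 382 in DP and 656 in SH. Each copy had more reads in SH than in DP, and in both libraries the order was D3, D4, D6. The authors counted only reads that aligned to a single position, so reads from any stretch that the copies have in common would be missing from these values. How alike the sequences of the copies are was not tested, and the split of reads among them is uncertain to that extent.

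**Figure D1:**
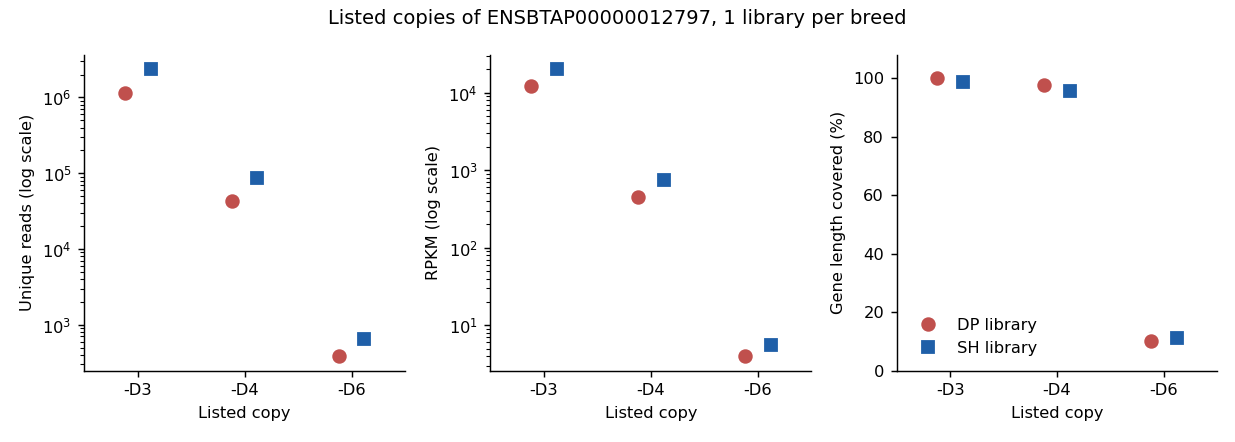
Unique reads (left, log scale), RPKM (middle, log scale) and percentage of the gene length covered by reads (right) of the D3, D4 and D6 copies, with 1 point per library (DP circles, SH squares) and no error bars, since each breed has 1 library. Reads and RPKM fall from D3 to D4 to D6 and are higher in SH for each copy, while coverage is near complete for D3 and D4 and about 10% for D6.

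On the RPKM scale, which takes length into account, D3 reached 11987 in DP and 20121 in SH. D4 reached 449 in DP and 740 in SH, and D6 reached 3.96 in DP and 5.58 in SH. The RPKM of D3 was thus 26.7 times that of D4 in DP and 27.2 times in SH. It was 3025 times that of D6 in DP and 3608 times in SH, with the RPKM of D6 spread over its whole length although its reads lay on about 10% of it. Per 1000 covered bases, D3 had 199629 reads in DP and 414771 in SH, and D6 had 659 and 1003. A single read on D3 corresponded to an RPKM of 0.0103 in the DP library and 0.00847 in the SH library, so all of these values, that of D6 included, lay far above that of 1 read.

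Of the reads on the 3 copies together, D3 held 96.35% in DP (95% interval 96.31% to 96.38%) and 96.42% in SH (96.39% to 96.44%). D4 held 3.62% in DP (3.59% to 3.65%) and 3.56% in SH (3.53% to 3.58%). D6 held 0.0317% in DP (0.0286% to 0.0351%) and 0.0266% in SH (0.0246% to 0.0287%). The split between D3 and D4 was almost the same in the libraries, although their reads had doubled from DP to SH. For every 10000 reads on D3 there were 376 on D4 in DP and 369 in SH, and 3.29 on D6 in DP and 2.76 in SH.

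The D3 copy was higher in SH than in DP by 1.68-fold on the RPKM scale (95% interval 1.67 to 1.68), a log2 ratio of 0.75 (0.74 to 0.75). The D4 copy was higher in SH by 1.65-fold (1.63 to 1.67), a log2 ratio of 0.72 (0.70 to 0.74). The D6 copy was higher in SH by 1.41-fold (1.24 to 1.60), a log2 ratio of 0.49 (0.31 to 0.68). No copy reached an absolute log2 ratio of 1, the limit that the authors used for new transcripts. Among all 14290 genes 28.4% were past this limit, and 13.4% were past it as higher in SH. This background depends on the genes with few reads, where 0 was replaced by an RPKM of 0.01, and the number past the limit fell from 4059 to 972 genes with a pseudocount of 1. Among the 1621 genes with at least 1000 reads in both libraries, the share past it in either direction was 5.12%.

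The log2 ratios of D4 and D3 differed by -0.03, D4 minus D3 (95% interval from a normal approximation on the read counts, -0.04 to -0.01). The log2 ratio of D6 was lower than that of D3, with a difference of -0.25 (-0.44 to -0.07), and lower than that of D4, with a difference of -0.23 (-0.41 to -0.04). These intervals describe read counting alone, and how much 2 libraries of the same breed would differ is not known. Other identifiers with several listed rows offer a background for the D3 and D4 pair. Among 24 pairs of rows with at least 100 reads each, from 18 other identifiers, the absolute difference of the log2 ratios had a median of 0.60 and ranged from 0.02 to 2.04. In 2 of these pairs the difference was smaller than between D3 and D4. The pairs are unlike D3 and D4 in depth, since the rows of each of these other identifiers had at most 5581 reads in all, and counting error widens their differences. Whether reads counted on D4 came from D4 or from D3 was not tested.

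The D3 ratio was high among abundant genes, most of which differed less between the libraries. Over the 50 genes with the most reads in the libraries together, the median log2 ratio was 0.07, with quartiles of -0.23 and 0.34, and 27 genes were higher and 23 lower in SH. The log2 ratio of D3 was exceeded by 3 of these 50 genes. Among the 1621 genes with at least 1000 reads in both libraries the median was -0.13, and 54 genes, or 3.33%, had a higher log2 ratio than D3. The corresponding number above D4 was 57 genes. These counts hold only genes with a higher ratio in SH. In either direction, 83 of the 1621 genes (5.12%) were past an absolute log2 ratio of 1. D6 had fewer than 1000 reads in each library. Among the 9640 genes whose RPKM was 1 or more in each library, which all 3 copies passed, 725 genes (7.52%) had a higher log2 ratio than D3, 771 than D4 and 1341 (13.9%) than D6. Over all 14290 listed genes, including those with reads in 1 library only, the shares were 16.5%, 16.8% and 22.8%.

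**Figure D2:**
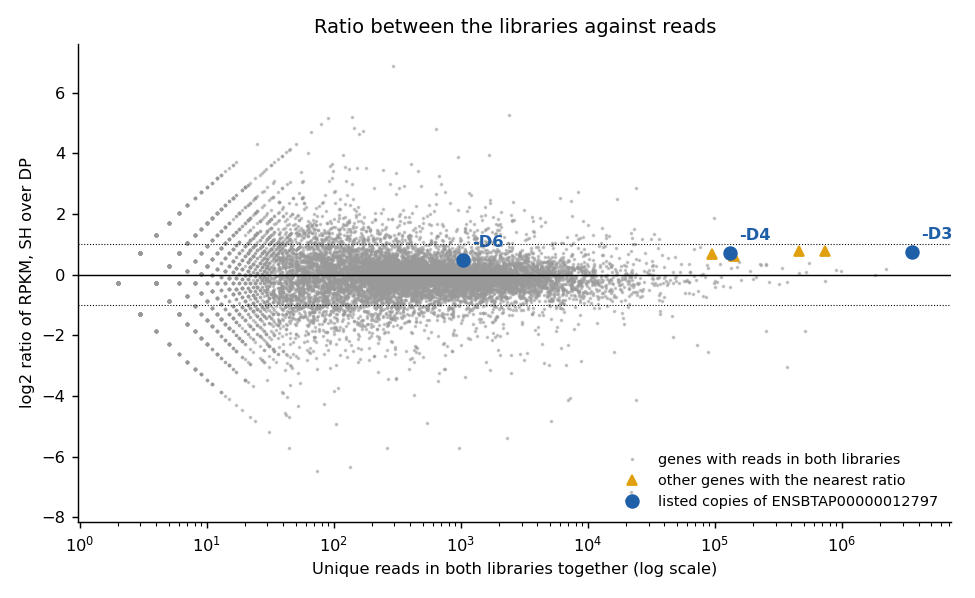
The log2 ratio of RPKM, SH over DP, against the unique reads in both libraries together (log scale), with 1 grey point per gene with reads in both libraries, the 3 copies as blue circles and the other genes with the nearest ratio as yellow triangles. Dotted lines mark log2 ratios of -1 and 1. D3 lies at the far right at 0.75, D4 near it in height at 0.72, and D6 at 0.49 inside the broader cloud of genes with fewer reads.

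The genes most like D3 were sought among the 50 genes with the most reads, by the absolute difference of the log2 ratios over the 2 libraries. The nearest was the D4 copy. Next came the gene prediction GLEAN_10002611 of 2640 bp, with 235974 reads in DP and 495767 in SH and a log2 ratio of 0.78. It was followed by ENSP00000367550 of 912 bp, with 147226 and 311286 reads and a log2 ratio of 0.79. ENSBTAP00000039743 of 990 bp had a log2 ratio of 0.70 and ENSP00000345771 of 2541 bp one of 0.62. With 2 libraries such likeness rests on a single ratio per gene, and nothing about function follows from it.

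The D3 copy held 6.96% of all reads on genes in DP (95% interval 6.95% to 6.97%) and 11.69% in SH (11.67% to 11.70%). The gene just behind it in both libraries was ENSP00000348444, the longest listed gene with 100338 bp, which had 922216 reads in DP and 1291049 in SH. D3 had 1.26 times its reads in DP and 1.84 times in SH. The third gene over the libraries together, ENSP00000355645 of 966 bp, took up 4.94% of DP reads and 4.94% of SH reads. D3 had 1.41 times the reads of this gene in DP and 2.37 times in SH, whereas its reads were 4.91 times those of GLEAN_10002611, the seventh gene, in DP and 4.79 times in SH.

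Together the 10 most-read genes of the combined libraries took up 30.7% of DP reads and 36.3% of SH reads, a difference of 5.55 percentage points. D3 alone differed by 4.72 points, and the other 9 genes together by a net 0.83 points. Among those 9, 6 were higher and 3 were lower in SH, with log2 ratios from -1.84 to 0.78. The largest gain after D3 was that of GLEAN_10002611 with 1.02 points, and the largest loss was that of ENSP00000386041 with -1.64 points.

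**Figure D3:**
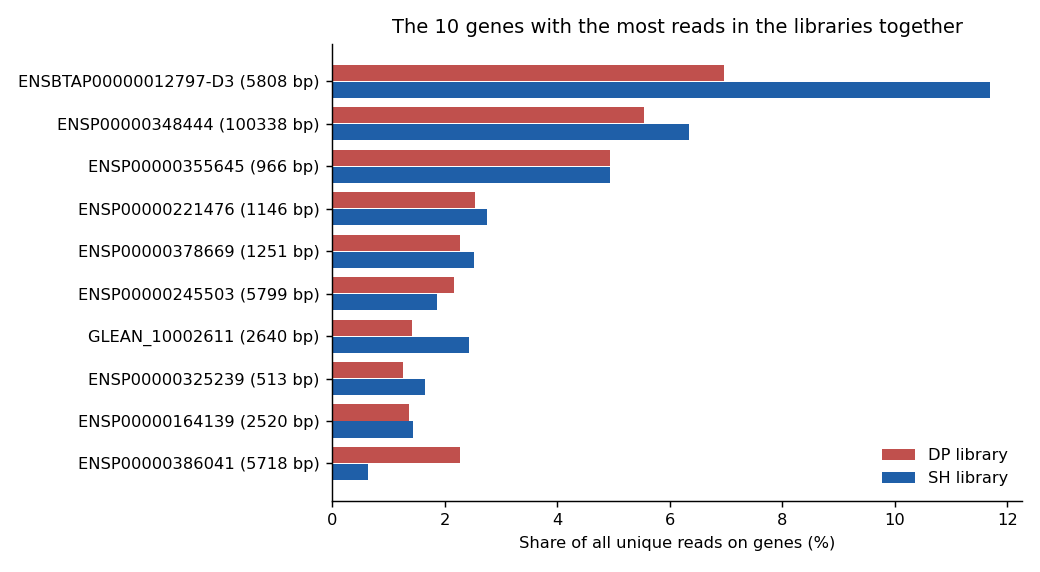
Share of all unique reads on genes, in percent, for the 10 genes with the most reads in the libraries together, with 1 bar per library (DP red, SH blue). D3 has the longest bar in each library, 6.96% in DP and 11.69% in SH, and ENSP00000386041 is the gene with the largest loss of share.

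Per length the order was different. By RPKM, D3 ranked 7 of 13488 genes in DP and 6 of 13563 in SH. The genes ahead of it, 6 in DP and 5 in SH, were short, with lengths from 315 to 1251 bp. The first of them, ENSP00000355645, reached 51133 in DP and 51099 in SH on this scale. D3 had 0.234 times this RPKM in DP and 0.394 times in SH. Of the genes of at least 5000 bp, 459 in DP and 462 in SH, D3 had the highest RPKM in both. The D4 copy ranked 43 by reads and 234 by RPKM in DP, and 28 and 114 in SH. The D6 copy ranked 3712 by reads and 7534 by RPKM in DP, and 2765 and 6557 in SH.

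Genes within 10% of the length of D3, from 5235 to 6387 bp, serve for a description in which length plays little part. There were 188 of them in DP and 193 in SH, with a median RPKM of 5.72 in DP and 5.41 in SH. D3 ranked 1 and D4 ranked 4 by reads in both libraries. The rank of D3 was fixed in advance by its choice as the most-read gene, and its share of reads depends on that choice too. Of all reads on these genes, D3 held 54.1% in DP and 74.0% in SH, and D4 held 2.03% and 2.73%. D6, ranked among genes within 10% of its own length, had the rank 113 of 187 in DP and 95 of 191 in SH.

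A pair of genes of this length stood between D3 and D4, and neither was higher in SH. This pair was singled out after its values were seen. ENSP00000245503, of 5799 bp, had 360047 reads in DP and 379237 in SH, with an RPKM of 3728 and 3217 and a log2 ratio of -0.21 (95% interval -0.22 to -0.21). ENSP00000386041, of 5718 bp, had 378206 reads in DP and 128694 in SH, with an RPKM of 3971 and 1107 and a log2 ratio of -1.84 (-1.85 to -1.83). In DP the RPKM of D3 was 3.22 times that of the first and 3.02 times that of the second, and in SH it was 6.25 and 18.2 times. Of the RPKM of these 2 genes and D3 together, D3 made up 60.9% in DP and 82.3% in SH. The 3 genes together held 11.4% of all reads in DP and 14.2% in SH, while the share of the other pair fell from 4.43% to 2.50%. Most of this fall was that of ENSP00000386041 with -1.64 points, against -0.30 points for ENSP00000245503. The log2 ratio of ENSP00000245503 lay between the quartiles, -0.38 and 0.12, of the 1621 genes with at least 1000 reads in both libraries. Shares of one total are not independent, and the RPKM of the 3 genes summed was 19686 in DP and 24445 in SH.

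Coverage, the percentage of the gene length on which reads lay, was not used to choose the gene. It was 100.02% for D3 in DP and 98.62% in SH. A value above 100% was given for 2 genes in DP, D3 among them, and for 0 genes in SH, and it corresponds to 5809 covered bases on a length of 5808. D4 was covered to 97.48% in DP and 95.69% in SH. Both copies thus had about 2 times as many reads in SH but a slightly lower coverage, by -1.40 points for D3 and -1.79 points for D4, SH minus DP. In D3 the bases without reads in SH numbered about 80, and in D4 about 147 in DP and 251 in SH. A lower coverage with more reads was seen in 67 of 230 genes, or 29.1%, that had at least 1000 reads in DP and at least 1.5 times as many in SH. Among the 9 of these genes within 10% of the length of D3, D3 and D4 included, coverage was lower in SH in 6, or 66.7%. In 13 of the 230 genes, D3 and D4 included, the fall was at least as large as in D3.

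The D6 copy was covered to only 10.01% in DP and 11.30% in SH, or about 579 and 654 bases of its 5787. Other genes of like length with a number of reads within 2 times that of D6 were covered far more widely. Among 48 such genes in DP, coverage ranged from 65.4% to 99.4% with a median of 94.1%. Among 68 such genes in SH it ranged from 74.1% to 99.9% with a median of 97.4%. Without regard to length there were 3208 genes with such read numbers in DP and 2908 in SH, with a median coverage of 97.4% and 98.3%. The lowest coverage among them was 10.55% in DP, close to that of D6, and 18.4% in SH, and 0 of them lay below D6 in either library. The reads of D6 thus lay on a small part of its length in both libraries, and its RPKM, which spreads them over the whole length, is not a level of the whole transcript. Whether these reads came from D6 or from another gene was not tested, since the tables do not give the position of reads.

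**Figure D4:**
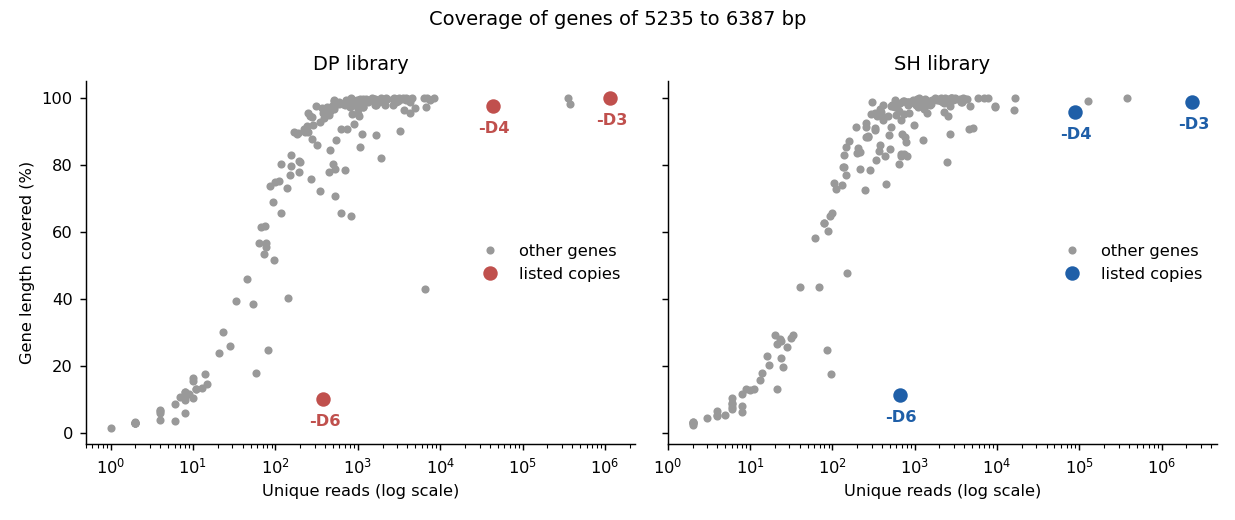
Percentage of the gene length covered by reads against unique reads (log scale) for genes of 5235 to 6387 bp, with 1 point per gene, DP on the left and SH on the right. Most genes with over 1000 reads are near 100%, as are D3 and D4, while D6 lies at 10.01% in DP and 11.30% in SH, far below other genes of this length with as many reads.

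A suffix was carried by 313 identifiers, 49 identifier stems had at least 2 listed rows and 10 had at least 3, with a maximum of 5. The stem of D3 was chosen by its reads, and the next had 27690 reads in the libraries together. Over the 40 stems with at least 2 rows above 0 in both libraries, the highest RPKM was a median of 5.18 times the lowest in DP and 7.19 times in SH. What the suffix stands for is not stated with the tables.

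The RPKM of every other gene is computed on a total that includes D3, and D3 took a larger share of that total in SH. With D3 left out, the totals were 15496944 reads in DP and 17953840 in SH, which raises the RPKM of the other genes by 1.07 times in DP and 1.13 times in SH. The log2 ratio of SH over DP of each other gene with reads in both then rises by 0.08. The median log2 ratio of genes other than D3 whose RPKM was 1 or more in each library was -0.0755 on the deposited scale and -0.000333 without D3. Over the genes that remain, it was 0.00266 with all 3 copies left out and 0.0449 with the 10 most-read genes left out. Where the median lands thus depends on which genes are dropped. Relative to totals without the 3 copies, the log2 ratio was 0.83 for D3, 0.80 for D4 and 0.57 for D6. These values are higher than those on the deposited scale by construction, since the copies themselves were taken out of the totals.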

How the data were processed

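RNA from biceps brachii of ewes had been sequenced, with 1 DP and 1 SH library. The authors removed reads with adaptors, with over 5% unknown bases or of low quality. The deposited counts are whole numbers of reads that the authors aligned to a single gene position, and the RPKM are the same counts as scaled by the authors to gene length and library depth. The deposited coverage score is the percentage of the gene length covered. The aligner, gene set and genome build of these tables are not given in the sources used here. The tables were joined by identifier. The members and lists were chosen with earlier results of these data known.

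The log2 ratio is SH over DP from the RPKM, with 0 replaced by 0.01, and the limit was an absolute log2 ratio of 1. With 1 library per breed no test was made. Exact 95% binomial (Clopper-Pearson) intervals were computed from counts and checked on simulated data. The simulated counts held counting error only, so the check does not bear on the spread between animals or libraries. Genes were named by rule: the copies, the 10 genes with the most reads, the 5 genes with the nearest log2 ratio among the 50 with the most reads, and genes of the same length. The pair of genes between D3 and D4 was singled out after its values were seen. Gene lists by name, such as myosins and fibre type markers, were not used, since the sources used here pair no names with the identifiers. Alternatives were other totals, TMM of edgeR 4.0.16, size factors of DESeq2 1.42.0, centring, a pseudocount, filters and ranks per length. Calculations were made in R 4.3.3 and in Python 3.11.15 with scipy 1.17.1, numpy 2.4.6, pandas 2.3.3 and matplotlib 3.10.9.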

Additional observations from a re-analysis of the deposited data

How the results depend on the processing

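Under each scaling tried, all copies remained higher in SH. The log2 ratios of D3 and D4 were 0.83 and 0.80 with totals without the listed copies, 0.87 and 0.84 with totals without the 10 most-read genes, 0.82 and 0.79 with TMM, 0.82 and 0.80 with DESeq2 size factors, and 0.82 and 0.80 when centred on the median log2 ratio. Under each of these settings D3 and D4 lay above their counting intervals, 0.744 to 0.750 for D3 and 0.703 to 0.737 for D4. Under these settings and with a pseudocount the value of D6 stayed within its counting interval. Summing the reads of all copies gave 0.75, above D4 and D6, since D3 holds most of the reads.

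As a share of the summed RPKM, D3 made up 1.47% in DP and 2.64% in SH, D4 0.0553% and 0.0971%, and D6 0.000487% and 0.000731%, since short genes weigh more per length. By RPKM, D3 ranked 7 in DP and 6 in SH, D4 234 and 114, and D6 7534 and 6557. Among genes of like length, D4 ranked 4 in DP and 4 in SH, and D6 113 and 95.

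The number of genes past an absolute log2 ratio of 1, 4059 on the deposited scale, was 972 with a pseudocount of 1, 1668 among genes whose RPKM was 1 or more in either library, and 950 with at least 100 reads in the 2 libraries together. The shift of the other genes was 0.12 when the 10 most-read genes were left out.

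No paired analysis was possible because each breed has 1 library. Depth limits the values of D6, with 382 and 656 reads. For D3 and D4 counting error is small, while the spread between animals and the placement of unique reads among the copies were not measured.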
